A study of Mus musculus with 3 samples.

Results

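The 27 mouse genes described here make cholesterol and long-chain fatty acids or regulate that production. They were chosen by symbol from the 31053 mouse features of the count matrices, and each symbol matched 1 feature. They comprise 18 sterol synthesis genes, 4 regulators (Insig1, Stard4, Srebf1 and Srebf2) and 5 fatty acid genes (Acly, Acaca, Fasn, Scd1 and Scd2). The study profiled single cells from mouse bladder and from bladder assembloids, which are tissue-like cultures that combine bladder cell types. The adult bladder library came from wild-type C57BL/6 mice aged 8 to 9 weeks, with 8 bladders pooled. The other libraries each pooled 3 assembloids, taken 1 day or 7 days after they had been reconstituted. The sources used here do not give the strain of the assembloid cells, the medium or its lipid content. Each group is 1 library, so no difference below has a replicate check and none was tested. Ratios carry exact 95% Poisson intervals, which cover counting error only.

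Cells build cholesterol from acetyl-CoA through mevalonate, the isoprenoid units that join into squalene, and the closure and trimming of the sterol rings. When sterols in the endoplasmic reticulum run low, the SREBP transcription factors are released to the nucleus and raise the genes of this chain, and INSIG proteins hold them back when sterols are plentiful. Fatty acid synthesis starts from citrate, which ATP citrate lyase (Acly) turns into acetyl-CoA. Acetyl-CoA carboxylase (Acaca) and fatty acid synthase (Fasn) then build saturated chains, into which the stearoyl-CoA desaturases (Scd1 and Scd2) place a double bond. The luminal membrane of the urothelium, the epithelium lining the bladder, is rich in uroplakins and cholesterol, and glia supply lipid for nerve sheaths.

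Cells were assigned to urothelium, fibroblasts, endothelium and glia by the share of each class's marker genes detected, and levels are UMIs per 1000000 UMIs (CPM) over the summed UMIs of a class. The libraries held 93560608, 135955678 and 120301672 UMIs (adult bladder, 1 day, 7 days), and 6775, 8258 and 8172 mouse cells were kept. UMIs of all 14 urothelial, 10 fibroblast, 10 endothelial and 9 glial markers were found in the class they define in each library. Levels of those markers differed: the summed fibroblast markers stood at 62361 CPM in bladder fibroblasts and 9288 CPM at 1 day, and Upk3a, a uroplakin, had UMIs in 98.4% of bladder and 12.5% of 1-day urothelial cells after thinning each cell to 2500 UMIs. Bladder and 1-day cells of a class also sat in different clusters: urothelium in clusters 0, 4 and 12 against 7, 8 and 30, fibroblasts in 1 and 17 against 2, 3, 5, 6, 9, 10, 19 and 20, endothelium in 16, 18, 21 and 23 against 14 and 23, and glia in 22 against 13. The 7-day library stands apart from its label, because 43.9% of its kept cells (3586) had at least 95% bladder cells among their 30 nearest bladder and 1-day cells, a search that left the lipid genes out. A further 53.2% (4349 cells) had at most 5% bladder cells there, and 237 cells lay between. These sets are called bladder-side and assembloid-side cells, and 7-day values are given for each. Both were picked by likeness to bladder or 1-day cells over the other genes. Closeness of their levels to those libraries is therefore partly built into the choice and gives no separate evidence. Barcodes shared between libraries were few, 21 between bladder and 1 day, 30 between bladder and 7 days and 114 between the assembloids.

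In the adult bladder the sterol genes were read most in urothelium and glia. Their summed level was 909.5 CPM in urothelium (2680 cells), 811.5 CPM in glia (244 cells), 252.5 CPM in endothelium (1087 cells) and 228.3 CPM in fibroblasts (1435 cells). At 1 day the order was turned around, with 855.7 CPM in fibroblasts (2935 cells), 609 CPM in endothelium (444 cells), 550.5 CPM in urothelium (1382 cells) and 546 CPM in glia (534 cells). The summed fatty acid genes followed another course, at 387.3, 309.1, 177.9 and 986.8 CPM in bladder urothelium, fibroblasts, endothelium and glia, and 543.6, 447.6, 179.8 and 362.4 CPM at 1 day in the same order of classes. Bladder-side cells of the 7-day library, picked by likeness to the bladder, lay near it in sterol level in all 4 classes, at 884.4, 233.3, 243.7 and 722 CPM. Assembloid-side cells stood at 561.4, 1031, 772.9 and 1181 CPM, above the 1-day level in fibroblasts, endothelium and glia, and in glia above the bladder as well, which 1-day glia were not.

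**Figure D1:**
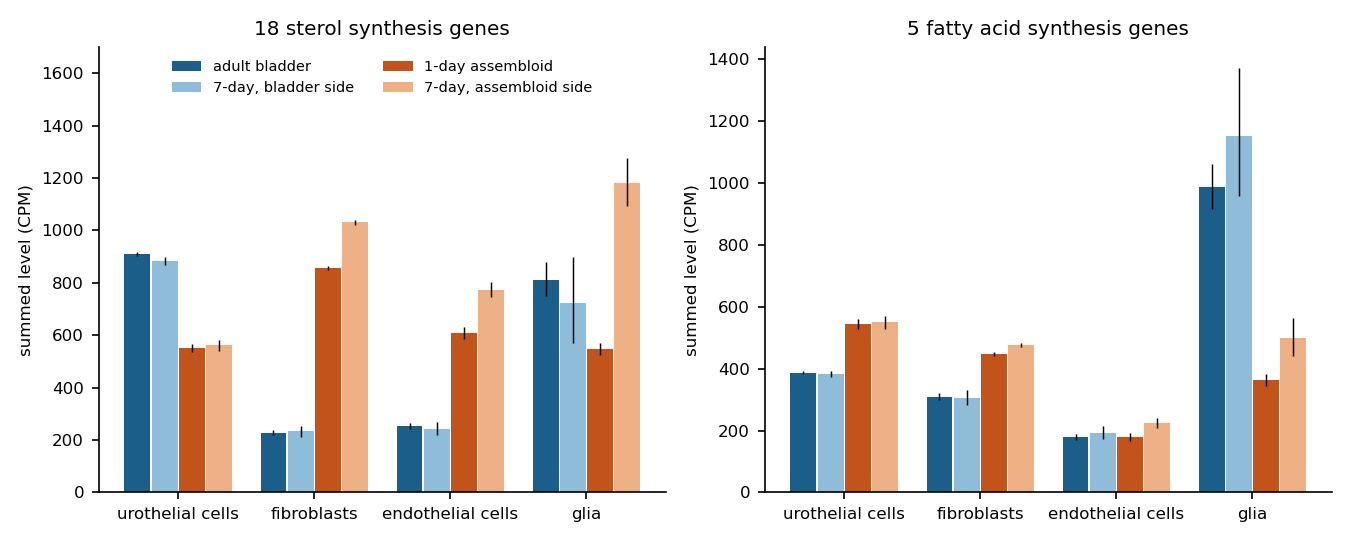
Summed CPM of the 18 sterol genes and the 5 fatty acid genes in each cell class, for the adult bladder, the bladder-side cells of the 7-day library, the 1-day assembloid and the assembloid-side cells of the 7-day library. Error bars are exact 95% Poisson intervals; sterol levels of fibroblasts run from 228.3 CPM in the bladder to 855.7 CPM at 1 day, and those of urothelium from 909.5 to 550.5 CPM.

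Fibroblasts showed the widest difference in sterol genes. At 1 day 13 of the 15 sterol genes measured there (a mean of at least 10 CPM over both groups) were at least 2-fold higher than in the bladder and none was 2-fold lower, where 17.4% of the 8058 genes measured were 2-fold higher and 18.0% lower. Without that minimum 15 of all 18 were 2-fold higher, and the median log2 ratio over the 18 was 1.80, against 0.09 over all measured genes. A gene can pass the minimum through the 1-day level alone: 8 members reached 10 CPM in both libraries, and 6 of these were 2-fold higher. The share of all genes without the minimum, or at 10 CPM in both libraries, is not given here. These counts therefore have no background to be read against. The summed sterol log2 ratio was 1.91 (1.84 to 1.97).

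Among the early steps, Hmgcs1, which makes HMG-CoA, read 34.1 CPM in bladder fibroblasts and 67.0 CPM at 1 day, with 39.5 CPM in bladder-side and 82.1 CPM in assembloid-side cells of the 7-day library. Its log2 ratio of 0.97 (0.80 to 1.15) fell just short of 2-fold. The mevalonate kinases were close above it: Mvk went from 16.4 to 40.1 CPM and Pmvk from 19.3 to 47.9 CPM. Mvd, the decarboxylase that yields isopentenyl diphosphate, stood at 4.67 CPM in the bladder and 17.6 CPM at 1 day. Larger ratios came with the isoprenoid steps. Idi1, the isomerase of isopentenyl diphosphate, read 5.03 CPM in the bladder, 37.3 CPM at 1 day, 4.39 CPM in bladder-side and 50.3 CPM in assembloid-side cells (1-day log2 ratio 2.88, 2.45 to 3.37).

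Fdps, farnesyl diphosphate synthase (chr3:89093588-89101959, mm10), makes the shared precursor of sterols and prenyl groups. In fibroblasts it stood at 14.5 CPM in the bladder (121 UMIs), 179.5 CPM at 1 day (10408 UMIs), 15.6 CPM in bladder-side and 220.8 CPM in assembloid-side cells, and the 1-day log2 ratio was 3.63 (3.37 to 3.90). Per cell, after thinning to 2500 UMIs, 2.69% of bladder fibroblasts had a Fdps UMI (exact Clopper-Pearson interval 1.86% to 3.76%, 208 shallower cells left out) and 31.6% of 1-day fibroblasts (29.9% to 33.3%, 43 left out). Unthinned, the shares were 7.88% and 80.3%, at median depths of 5812 and 18909 UMIs. Upk3a, which fibroblasts should lack, had UMIs in 8.15% of thinned bladder fibroblasts and 0.138% of 1-day ones, so the bladder share for Fdps lies under that of Upk3a and the 1-day share far above it. Upk3a is in nearly all bladder urothelial cells and sets a high mark. Together the urothelial markers Upk3a, Krt15 and Sfn were read in bladder fibroblasts at 0.837% of their urothelial level. At that rate Fdps would carry 1.70 CPM of its 14.5 CPM.

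The squalene steps differed as widely as Fdps, and the step that closes the rings less. Fdft1, squalene synthase, stood at 2.75 CPM in bladder fibroblasts (23 UMIs) and 43.1 CPM at 1 day, a log2 ratio of 3.94 (3.38 to 4.63). Sqle, the squalene epoxidase on chr15:59315077-59331192, had 3.47 CPM in the bladder, 45.3 CPM at 1 day, 5.37 CPM in bladder-side and 54.7 CPM in assembloid-side cells, a 1-day ratio of 3.68 (3.18 to 4.29). Lss, which closes the rings, was read at 2.99 and 9.13 CPM (log2 ratio 1.58) and did not reach the minimum. In bladder fibroblasts Sqle rested on 29 UMIs, so the wide intervals come mostly from that side.

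Past lanosterol the genes did not all follow. Cyp51, the lanosterol demethylase, went from 12.1 to 84.5 CPM (log2 ratio 2.80, with 4896 against 101 UMIs), and Msmo1, the methylsterol monooxygenase, from 10.1 to 96.9 CPM (3.26, with 5617 against 84 UMIs). Nsdhl (5.50 to 30.7 CPM), Hsd17b7 (7.30 to 27.03 CPM) and Sc5d (15.9 to 52.5 CPM), which act in demethylation and desaturation of the ring, were also 2-fold higher, as was Acat2 (7.18 to 22.6 CPM), the cytosolic thiolase at the head of the chain. Ebp, the sterol isomerase, was lower at 1 day, with 59.8 CPM in the bladder against 44.6 CPM (log2 ratio -0.43, -0.56 to -0.28). Dhcr7, which reduces 7-dehydrocholesterol, read 6.34 and 7.14 CPM, within counting error of each other, and Tm7sf2, a sterol reductase, 0.96 and 2.80 CPM.

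Several values moved with this result in fibroblasts, and their part in it was not tested. The 6 smooth muscle markers summed to 77.3 CPM in bladder fibroblasts and 1629 CPM at 1 day, with all 6 detected in both, and 981 of the 2935 cells of the 1-day fibroblast class were assigned by a margin under 25 percentage points. Of 8 cell cycle genes, 7 were 2-fold higher at 1 day, and all 8 immediate early genes were 2-fold lower. Over fibroblasts in 3 equal sets from shallow to deep the summed sterol level was 212.8, 222.2 and 237.2 CPM in the bladder, 938.3, 902.8 and 792 CPM at 1 day, and 955.8, 990 and 1083 CPM in assembloid-side cells. UMIs of Upk3a, Krt15 and Sfn in bladder fibroblasts stood at 0.837% of their urothelial level, which would carry 7.61 CPM of the 228.3 CPM.

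**Figure D2:**
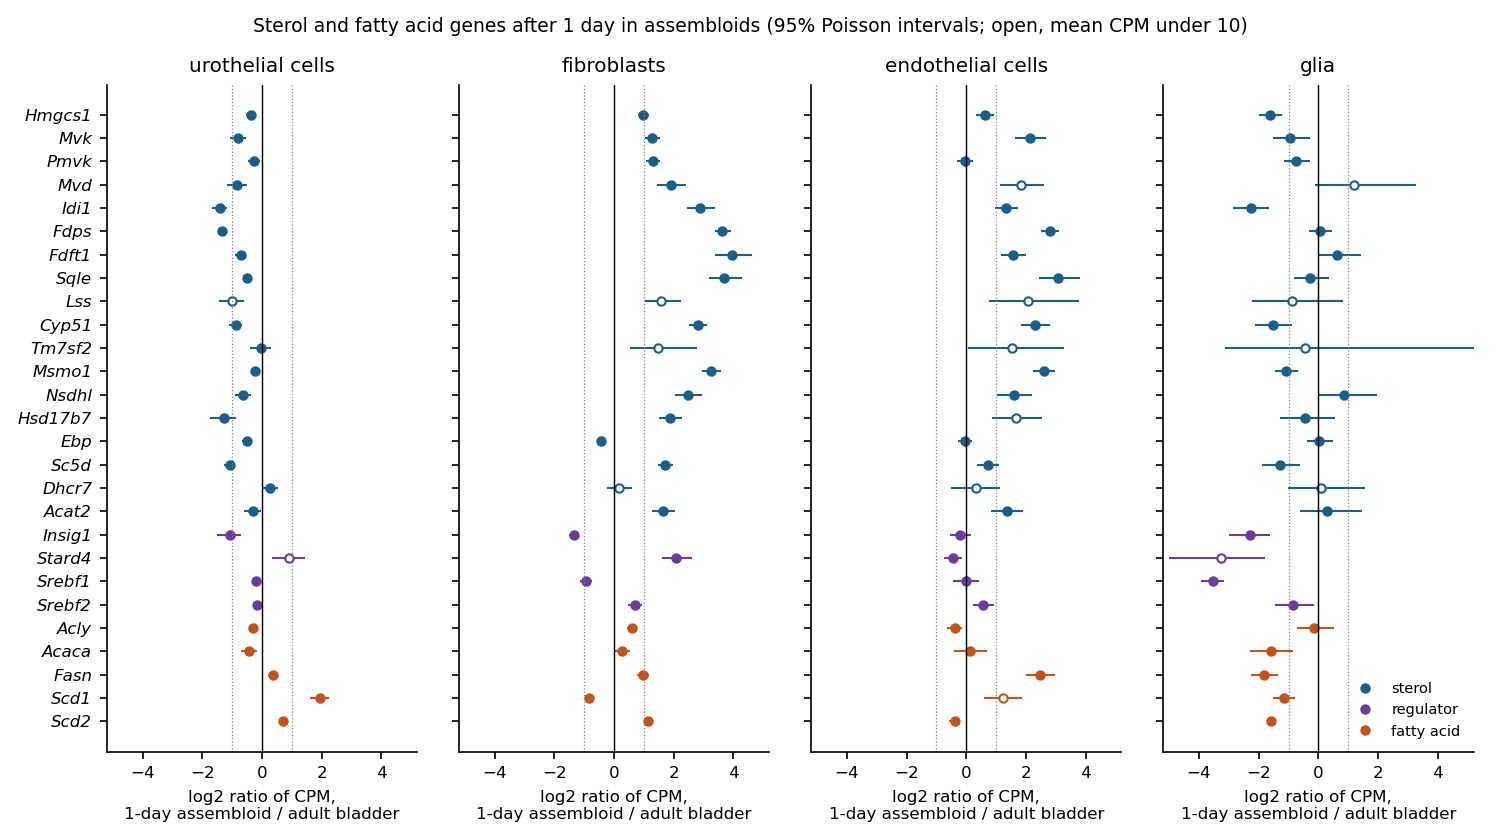
Log2 ratio of each of the 27 genes, 1-day assembloid against adult bladder, in urothelium, fibroblasts, endothelium and glia, with exact 95% Poisson intervals (the interval of glial Tm7sf2 runs past the axis). Most sterol genes lie right of 0 in fibroblasts and endothelium and left of 0 in urothelium.

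Promoter sequence is shown for 3 sterol genes, Hmgcs1, Idi1 and Msmo1. Idi1 and Msmo1 were 2-fold higher in 1-day fibroblasts, and Hmgcs1 was higher but fell just short of that. Sequence is also shown for Insig1, which was lower in 1-day fibroblasts, and for Fasn of the fatty acid genes. The reason is that SREBP sites in such promoters commonly sit near CCAAT boxes and GC boxes. The promoter table used, from RefSeq (GRCm38.p6, the mm10 assembly), matched 21 of the 27 genes, and Fdps, Fdft1, Sqle, Stard4, Scd1 and Scd2 were not matched in it. Matches of CCAAT (the CCAAT box), of GGGCGG (the GC box) and of TCACNCCAC (the core of a sterol regulatory element) were searched on both strands in the 250 bases before each start, overlapping matches included. CCAAT was found in 17 of the 21 (81.0%) and in 13 of the 15 sterol genes, against 34.46% of 27025 genes of any kind and 35.89% of 7776 genes expressed in fibroblasts or urothelium. GGGCGG was found in 17 of the 21 and in 14 of the 15 sterol genes, against 32.94% and 63.07% of the same sets. TCACNCCAC was found in Hmgcs1 alone, against 1.036% and 0.9388%. The 33 CCAAT matches of the members lay at a median of 62 bases before the start. These matches describe the letters and do not show a bound site. The 5 windows below run 5′ to 3′ toward the start, with the matches in capitals.
Hmgcs1, chr13:119690101-119690350, plus strand: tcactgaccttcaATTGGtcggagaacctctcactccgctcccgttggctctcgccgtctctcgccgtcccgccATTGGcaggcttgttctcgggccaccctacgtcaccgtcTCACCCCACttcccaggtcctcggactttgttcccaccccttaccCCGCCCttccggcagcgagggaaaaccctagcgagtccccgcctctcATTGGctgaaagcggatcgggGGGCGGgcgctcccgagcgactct
Idi1, chr13:8885356-8885605, plus strand: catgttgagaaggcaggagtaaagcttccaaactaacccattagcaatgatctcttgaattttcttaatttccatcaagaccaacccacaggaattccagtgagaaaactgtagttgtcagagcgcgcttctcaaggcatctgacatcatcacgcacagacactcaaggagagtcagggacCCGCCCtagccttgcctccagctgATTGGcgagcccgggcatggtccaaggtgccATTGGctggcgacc
Msmo1, chr8:64733579-64733828, minus strand: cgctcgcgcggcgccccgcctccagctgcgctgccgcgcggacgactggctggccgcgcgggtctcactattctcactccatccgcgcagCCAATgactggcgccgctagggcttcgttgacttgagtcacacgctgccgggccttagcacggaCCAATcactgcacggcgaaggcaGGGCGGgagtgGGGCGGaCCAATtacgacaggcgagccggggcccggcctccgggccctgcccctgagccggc
Insig1, chr5:28071162-28071411, plus strand: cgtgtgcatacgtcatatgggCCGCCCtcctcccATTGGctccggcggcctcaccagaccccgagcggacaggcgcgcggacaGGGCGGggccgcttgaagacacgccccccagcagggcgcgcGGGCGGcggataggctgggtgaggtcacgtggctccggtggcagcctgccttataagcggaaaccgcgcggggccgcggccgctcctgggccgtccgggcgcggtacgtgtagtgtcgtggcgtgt
Fasn, chr11:120824548-120824797, minus strand: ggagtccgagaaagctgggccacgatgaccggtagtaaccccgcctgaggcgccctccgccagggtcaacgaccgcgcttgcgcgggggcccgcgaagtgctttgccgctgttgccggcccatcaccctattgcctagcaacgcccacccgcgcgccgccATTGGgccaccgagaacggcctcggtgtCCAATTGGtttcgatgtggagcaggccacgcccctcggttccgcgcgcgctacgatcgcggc
Hmgcs1 holds all 3 motifs, Idi1 and Msmo1 hold CCAAT and GGGCGG, and Fasn holds CCAAT without GGGCGG. Insig1, which holds CCAAT and GGGCGG as Idi1 and Msmo1 do, was lower in 1-day fibroblasts where those genes were higher.

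The regulators were divided in fibroblasts, with Insig1 and Srebf1 lower at 1 day and Stard4 and Srebf2 higher. Past 2-fold were Insig1 and Stard4. Insig1, whose protein retains the SREBPs in the endoplasmic reticulum, stood at 46.8 CPM in bladder fibroblasts, 18.3 CPM at 1 day, 40.02 CPM in bladder-side and 26.7 CPM in assembloid-side cells, a 1-day log2 ratio of -1.35 (-1.52 to -1.18). Stard4, a carrier of free sterol, was higher, at 4.31 CPM against 18.4 CPM (2.08, 1.62 to 2.62). Srebf2, the SREBP that acts mainly on sterol genes, read 22.0 and 35.7 CPM (0.69, 0.48 to 0.92). Srebf1, the SREBP tied mainly to fatty acid genes, read 29.6 and 15.2 CPM (-0.96, -1.16 to -0.75). Only transcript levels are measured here, not the cleavage that activates either factor.

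Of the 5 fatty acid genes, Scd2 was 2-fold higher in 1-day fibroblasts, and none was 2-fold lower; 1 of 5 is near the 17.4% of all measured genes. Scd2 stood at 119.2 CPM in the bladder, 261.3 CPM at 1 day, 115.2 CPM in bladder-side and 272.2 CPM in assembloid-side cells (1-day log2 ratio 1.13, 1.04 to 1.23). Scd1 went the other way, with 113.3 CPM in the bladder, 63.9 CPM at 1 day, 109.3 CPM in bladder-side and 73.5 CPM in assembloid-side cells (-0.83, -0.93 to -0.72). Fasn lay just short of 2-fold (26.2 and 51.5 CPM, log2 ratio 0.97, 0.77 to 1.18), Acly read 33.6 and 50.8 CPM, and Acaca 16.8 and 20.1 CPM. Scd1 and Scd2 are neighbours on chromosome 19 (44394455 to 44407879 and 44293674 to 44306864, mm10) with closely similar sequences, so the split of reads between them is uncertain.

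**Figure D3:**
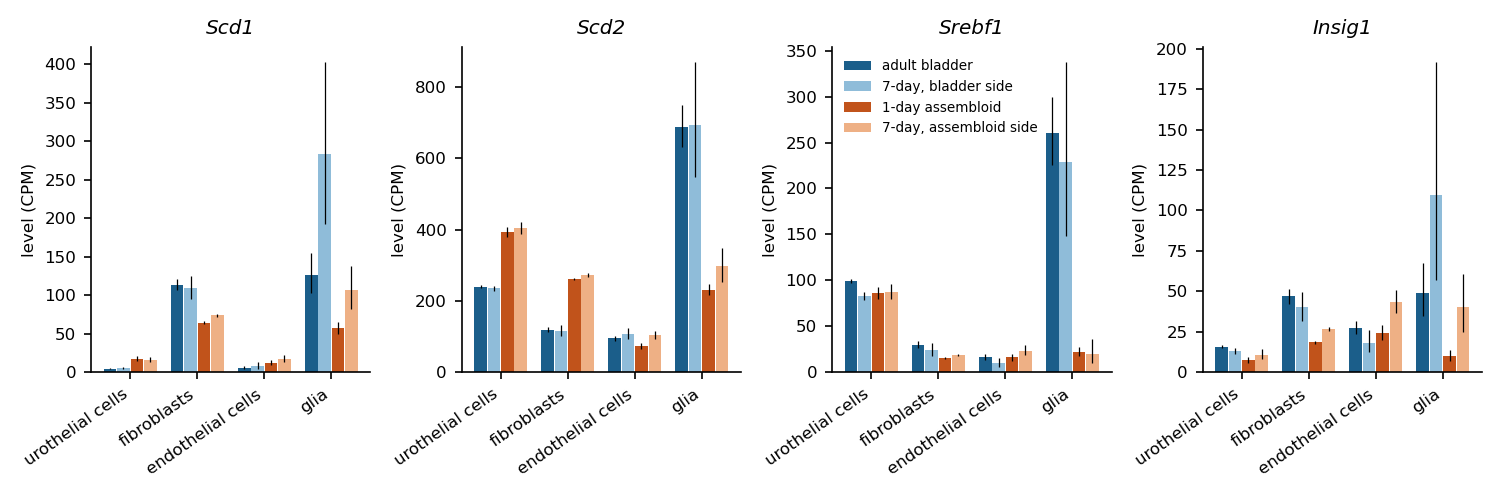
CPM of Scd1, Scd2, Srebf1 and Insig1 in each class for the adult bladder, the bladder-side 7-day cells, the 1-day assembloid and the assembloid-side 7-day cells, with exact 95% Poisson intervals. In fibroblasts Scd2 is higher and Scd1 and Insig1 are lower in the assembloid cells, and in glia Srebf1 falls from 260.3 to 22.2 CPM at 1 day.

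Endothelial cells gave the same direction in sterol genes with a smaller summed ratio. At 1 day 9 of 13 measured sterol genes were 2-fold higher than in the bladder and none was lower, where 20.9% of measured genes were 2-fold higher and 20.5% lower. Over all 18 members 13 were 2-fold higher and the median log2 ratio was 1.58. At 10 CPM in both libraries stood 8 members, of which 4 were higher. As in fibroblasts, no share of all genes is given for the counts under these other filters. The summed log2 ratio was 1.27 (1.18 to 1.36). Fdps read 18.4 CPM in bladder endothelium, 128.4 CPM at 1 day, 14.1 CPM in bladder-side and 150 CPM in assembloid-side cells (1-day ratio 2.80, with 573 against 122 UMIs). Sqle read 3.32 CPM (22 UMIs) and 28.2 CPM (126 UMIs), a ratio of 3.06 (2.43 to 3.82). Msmo1 went from 11.8 to 71.5 CPM, Cyp51 from 7.38 to 36.8 CPM, Mvk from 6.78 to 29.8 CPM and Idi1 from 12.8 to 32.5 CPM. Fdft1, Nsdhl and Acat2 completed the genes that were 2-fold higher.

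In endothelium 15 of the 18 sterol genes had intervals above 0, and those of Pmvk, Ebp and Dhcr7 held 0. Pmvk read 45.1 CPM in the bladder and 43.5 CPM at 1 day, and Ebp 64.5 and 62.8 CPM. Hmgcs1 stood at 27.4 and 41.9 CPM and Sc5d at 18.2 and 30.04 CPM, both higher by less than 2-fold. No regulator was 2-fold different: Stard4 read 40.7 and 30.04 CPM, Insig1 27.6 and 24.0 CPM, Srebf1 16.0 and 15.9 CPM. Of the fatty acid genes Fasn was 2-fold higher, at 6.78 CPM in the bladder, 37.7 CPM at 1 day, 12.4 CPM in bladder-side and 31.0 CPM in assembloid-side cells (log2 ratio 2.46, 1.99 to 2.98). Scd2 was lower by less than 2-fold (94.6 and 71.9 CPM) and Acly likewise (60.9 and 46.4 CPM). The summed fatty acid ratio of 0.02 (-0.12 to 0.15) therefore joins members of opposite sign. Of the cell cycle genes 7 of 8 were 2-fold higher here too, and all 8 immediate early genes were lower; their part in the result was not tested.

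Urothelium moved the opposite way in sterol genes. Of 17 measured sterol genes 4 were 2-fold lower at 1 day (Idi1, Fdps, Hsd17b7 and Sc5d) and none was 2-fold higher, where 6.16% of the 7287 measured genes were lower and 10.7% higher. Of all 18 members 17 had a log2 ratio below 0, and the intervals of 16 lay wholly below 0. The median over the 18 was -0.66, against 0.24 over all measured genes, and the summed ratio was -0.72 (-0.77 to -0.68). Bladder urothelial cells had a median of 21343.5 UMIs and 1-day cells 4865.5. Among cells of 4000 to 16000 UMIs, which keeps 632 of 2680 bladder and 985 of 1382 1-day cells, no sterol gene was 2-fold lower and the summed ratio was -0.59, while with each cell thinned to 2500 UMIs 5 were lower and it was -0.79. The cause was not tested. Within the bladder the summed sterol level went with depth, at 795, 862.6 and 971.3 CPM over the cells in 3 equal sets from shallow to deep, and within the 1-day library it was 515.7, 522.6 and 579.9 CPM.

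Fdps stood at 202.6 CPM in bladder urothelium, with 79.6 CPM at 1 day, 202.2 CPM in bladder-side and 89.7 CPM in assembloid-side cells. Its 1-day log2 ratio was -1.35 (-1.47 to -1.23), and -0.61 at 4000 to 16000 UMIs. Thinned to 2500 UMIs, 34.9% of bladder urothelial cells (33.1% to 36.7%, 35 left out) and 14.1% of 1-day cells (12.3% to 16.1%, 72 left out) had a Fdps UMI. The unthinned shares were 83.21% and 24.96%. Dcn, a fibroblast gene, had UMIs in 2.57% and 2.90% of the same thinned cells, well under both shares.

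The other early genes were lower by varied amounts. Idi1 read 48.9 CPM in the bladder, 18.4 CPM at 1 day, 38.3 CPM in bladder-side and 16.0 CPM in assembloid-side cells (1-day ratio -1.40, -1.66 to -1.17), Mvk 30.1 and 17.3 CPM, and Mvd 19.4 and 10.9 CPM. Hmgcs1 stood nearer, at 74.98 and 57.5 CPM, and Pmvk at 34.7 and 28.7 CPM. Fdft1 read 52.5 and 32.0 CPM, Sqle 77.4 and 54.6 CPM, and Lss 13.3 and 6.62 CPM. The ends of the chain held both the lower and the nearly equal genes. Sc5d went from 84.9 to 39.97 CPM (-1.08, -1.26 to -0.92), Hsd17b7 from 14.5 to 5.97 CPM and Cyp51 from 43.3 to 23.6 CPM. Msmo1 read 95.4 and 81.6 CPM, Tm7sf2 10.7 and 10.4 CPM, and Dhcr7 14.7 and 17.8 CPM (0.28, 0.00 to 0.53). Nsdhl, Ebp and Acat2 were lower by less than 2-fold.

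Regulators and fatty acid genes parted from the sterol genes in urothelium. Insig1 was 2-fold lower (15.7 and 7.40 CPM), while Srebf1 (99.1 and 85.9 CPM) and Srebf2 (76.3 and 68.3 CPM) lay close together and Stard4 was read at 2.36 and 4.41 CPM, under the minimum. Scd1, almost unread in bladder urothelium, stood at 4.52 CPM there, 17.3 CPM at 1 day, 5.58 CPM in bladder-side and 16.0 CPM in assembloid-side cells (log2 ratio 1.94, 1.62 to 2.23). Its thinned share of cells with a UMI was 0.983% in the bladder and 3.59% at 1 day. Dcn, read in more fibroblasts than Scd1, had shares of 2.57% and 2.90%. A rate of fibroblast UMIs in urothelium was taken from Col3a1, Dcn and Acta2 together. At that rate Scd1 would carry 0.0825 CPM of its bladder level and 2.53 CPM of its 1-day level. After thinning each cell to 2500 UMIs its log2 ratio was 1.80, and no fatty acid gene then met both the minimum and 2-fold. Scd2 was higher by less than 2-fold, with 239.8 CPM in the bladder, 392.7 CPM at 1 day, 234.9 CPM in bladder-side and 404.2 CPM in assembloid-side cells (0.71, 0.65 to 0.77). Fasn read 40.8 and 52.6 CPM, Acly 77.9 and 63.1 CPM and Acaca 24.3 and 18.04 CPM. The summed fatty acid ratio was 0.49 (0.44 to 0.54). All 12 hypoxia genes were 2-fold higher in 1-day urothelium, with a median log2 ratio of 3.05, and their part in these values was not tested. UMIs of Col3a1, Dcn and Acta2 together stood in 1-day urothelium at 3.95% of their fibroblast level, which would carry 33.8 CPM of the 550.5 CPM. Acta2, which is not among the 10 fibroblast markers, made up 348.4 of their 392.8 CPM there. The 10 fibroblast markers summed to 192.7 CPM in 1-day urothelium and 9288 CPM in 1-day fibroblasts.

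In sterol genes the 1-day subsets lay wholly apart from the bladder subsets, below them in urothelium and above them in fibroblasts. In bladder urothelium the sterol genes summed to 971.4 CPM in cells high in Krt20, a keratin of the superficial layer, 709.7 CPM in cells high in Krt5, a keratin of the basal layer, and 918.2 CPM in the rest. At 1 day cells high in Ndufa4l2 and Fxyd4 had 613.6 CPM, Krt5-high cells 461.3 CPM and the rest 522.6 CPM, so each of these lay below each bladder subset. The fatty acid genes were more uneven at 1 day, with 704.1 CPM in the Ndufa4l2 and Fxyd4 cells against 394.2 and 440.2 CPM in the others. Scd2 accounted for much of that, at 543.7 CPM in those cells and 250.8 CPM in Krt5-high cells. Among bladder fibroblast subsets the sterol level ran from 211.2 to 251.8 CPM. Among 1-day subsets it was 1315 CPM in Crabp1-high cells, 1029 CPM in Spp1- and Gzme-high cells, 924.1 CPM in Dkk2- and Bmp4-high cells, 819.5 CPM in the rest, 654 CPM in Mmp3- and Igf1-high cells and 558.8 CPM in Tnfsf15- and Aldh1a3-high cells. Crabp1-high cells also led the assembloid-side cells of the 7-day library, at 1496 CPM.

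**Figure D4:**
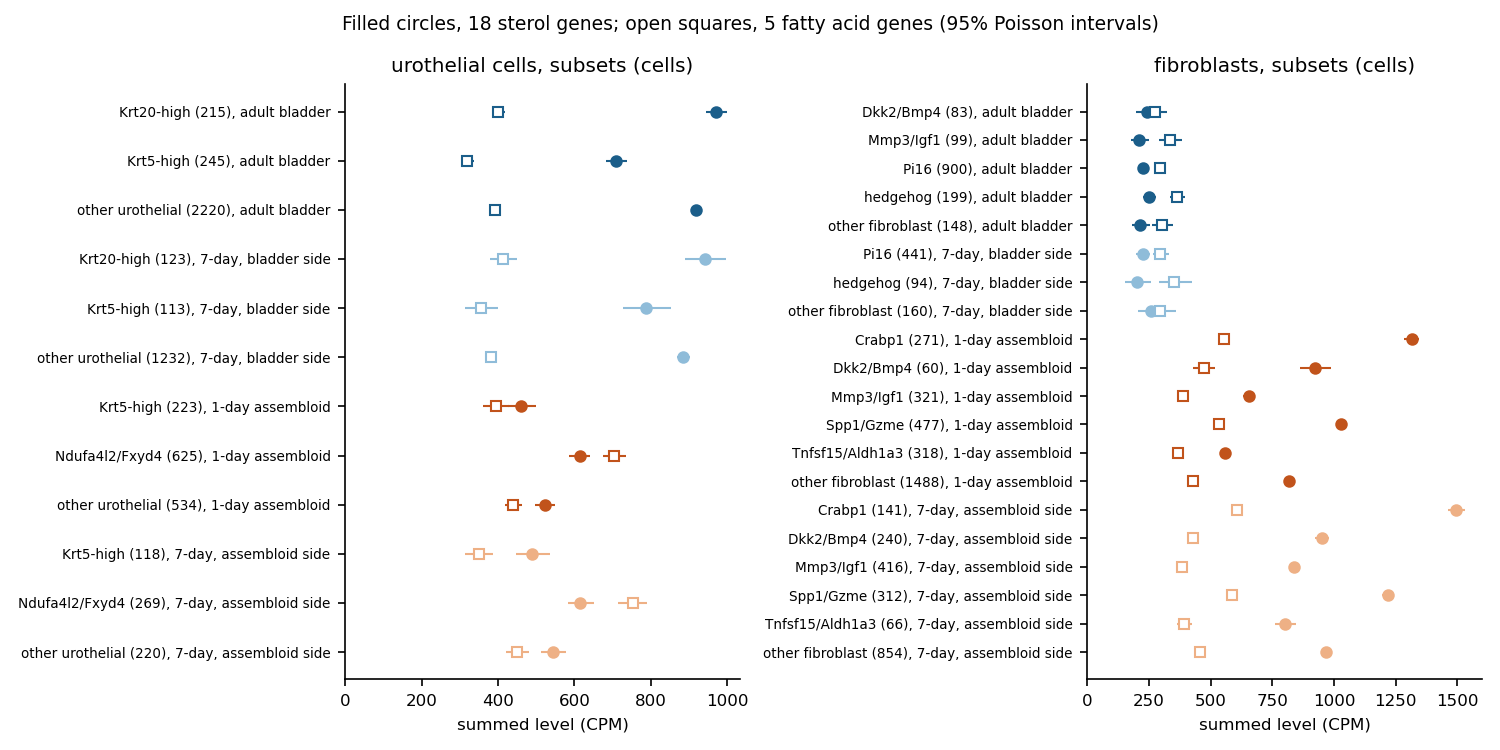
Summed CPM of the sterol and the fatty acid genes in urothelial and fibroblast subsets of each library, with exact 95% Poisson intervals. All 1-day fibroblast subsets lie above the bladder subsets in sterol level, from 558.8 to 1315 CPM against 211.2 to 251.8 CPM.

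Set against each other, urothelium and fibroblasts exchanged places in sterol genes between bladder and assembloid. In the bladder 12 of 16 measured sterol genes were 2-fold higher in urothelium and none was lower, where 16.2% of measured genes were higher and 26.3% lower. The summed log2 ratio of urothelium to fibroblasts was 1.99 (1.93 to 2.06), beside a median of -0.18 over all measured genes. At 1 day 1 of 16 was 2-fold higher in urothelium and 5 were lower, where 18.6% of measured genes were higher and 21.2% lower, and the summed ratio was -0.64 (-0.68 to -0.59). The 1 higher gene was Dhcr7, with 17.8 CPM in urothelium and 7.14 CPM in fibroblasts. These ratios share the libraries of the comparisons above and give no separate evidence of them.

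**Figure D5:**
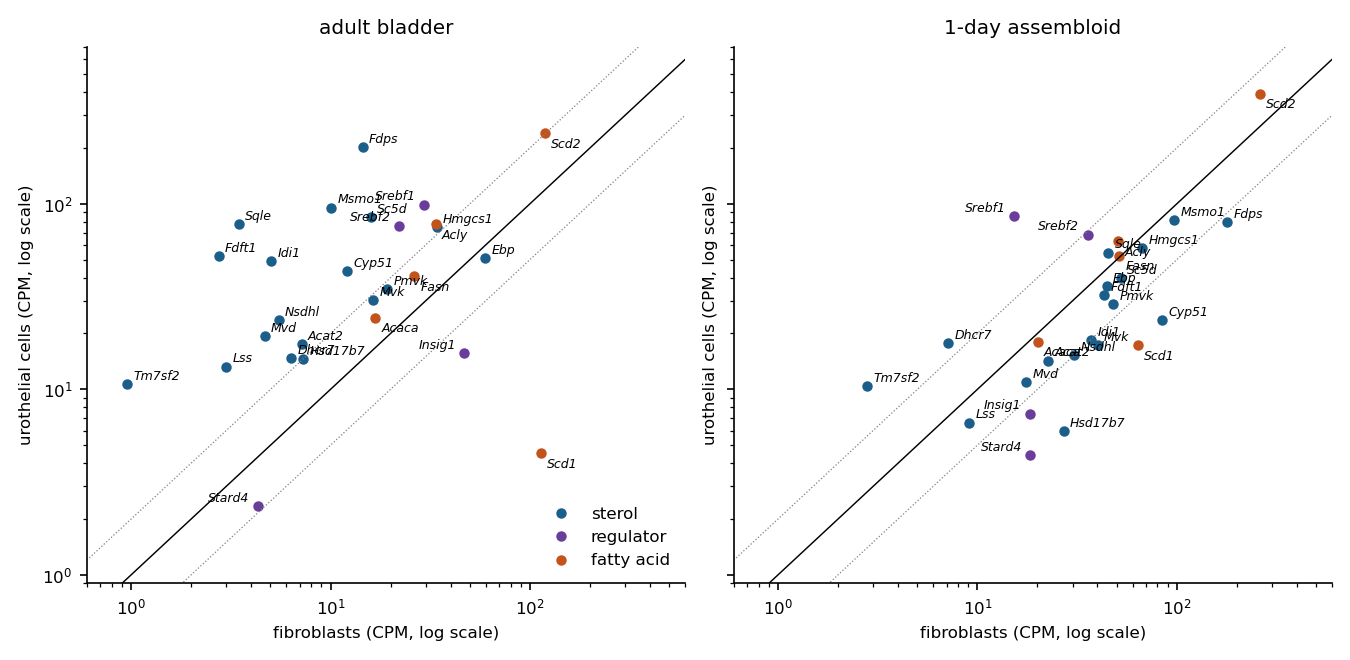
CPM of each member in urothelium against fibroblasts on log axes, in the adult bladder and in the 1-day assembloid; the line marks equal levels. Dotted lines mark 2-fold. Sterol genes other than Ebp lie above the line in the bladder (summed log2 ratio 1.99) and most lie below it at 1 day (-0.64).

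Glia, the support cells of nerves, had the highest fatty acid level of the 4 classes in the bladder and the lowest 1-day ratio in it. At 1 day 4 of the 5 fatty acid genes were 2-fold lower and none was higher, and 5 of 14 measured sterol genes were 2-fold lower and none was higher, where 18.8% of measured genes were lower and 13.9% higher. The summed fatty acid log2 ratio was -1.45 (-1.58 to -1.31). Scd2 stood at 689.3 CPM in bladder glia, 231.3 CPM at 1 day, 694.6 CPM in bladder-side and 298.0 CPM in assembloid-side cells (1-day ratio -1.58, -1.73 to -1.42). Fasn went from 96.9 to 27.6 CPM (-1.82, -2.26 to -1.36), Scd1 from 126.2 to 56.8 CPM and Acaca from 37.2 to 12.3 CPM, while Acly read 37.2 and 34.3 CPM. Srebf1 had the largest ratio of the members measured, with 260.3 CPM in the bladder, 22.2 CPM at 1 day, 228.5 CPM in bladder-side and 19.99 CPM in assembloid-side cells (-3.54, -3.94 to -3.17). Bladder-side glia were 69 cells, 1 of which held 30.95% of their fatty acid UMIs, and Srebf1 rested on 25 UMIs there. A Srebf1 UMI was found in 44.2% of thinned bladder glia (79 left out) and 3.80% of 1-day glia (8 left out), with unthinned shares of 50.4% and 14.0% at median depths of 2945 and 6715.5 UMIs. Upk3a, which glia should lack, had UMIs in 10.3% of the same bladder cells and in 0 of 526 1-day cells.

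The sterol genes of glia did not all move alike. Idi1 read 65.1 CPM in the bladder and 13.7 CPM at 1 day (-2.25, -2.85 to -1.66), Hmgcs1 118.2 and 38.9 CPM (-1.61, with 145 against 89 UMIs), Cyp51 47.8 and 16.9 CPM, Sc5d 45.2 and 18.8 CPM and Msmo1 110.2 and 52.5 CPM. Fdps, by contrast, read 93.0 and 97.8 CPM (0.07, -0.30 to 0.46), Ebp 70.4 and 72.1 CPM, and Nsdhl 14.6 and 27.6 CPM. The summed sterol ratio was -0.57 (-0.70 to -0.44). Assigned without the cluster rule, bladder glia include 1 cell of high depth that clustered apart from glia, and then 9 sterol genes were 2-fold lower and the summed ratio was -1.16. Insig1 was 2-fold lower, at 49.1 and 9.92 CPM. Glial markers themselves summed to 10168 CPM in the bladder and 2627 CPM at 1 day. The 10 fibroblast markers were read in the same cells at 9774 CPM in the bladder (9 of 10 detected, Twist2 at 0) and 3292 CPM at 1 day (all 10). Dcn, among these 10, had UMIs in 6.06% of thinned bladder glia, 2.47% of 1-day glia and 99.9% of bladder fibroblasts. The glial sums are thus carried mostly by other markers of the list. Scd1 is itself read in bladder fibroblasts, and whether their RNA adds to the glial level was not tested. All 8 immediate early genes were 2-fold lower; their part in the result was not tested.

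At 7 days the result depended on which cells were read. Percentages in brackets are shares of all measured genes that were 2-fold different in either direction. Counts given as higher or lower are of a single direction, for which the share of all genes is no larger. Over all 7-day cells no sterol gene of urothelium was 2-fold different from the bladder (1.1% of measured genes were, in either direction), while 14 of 15 were 2-fold higher in fibroblasts (30.2%), 9 of 13 in endothelium (20.1%) and 4 of 16 in glia (29.5%; 0 with that bladder cell included). In assembloid-side cells 3 of 17 were 2-fold lower in urothelium (16.3%), and 14 of 15 were higher in fibroblasts (31.8%), 13 of 15 in endothelium (37.8%) and 4 of 16 in glia (35.2%). In bladder-side cells the summed sterol ratios to the bladder were -0.04 in urothelium, 0.03 in fibroblasts, -0.05 in endothelium and -0.16 in glia. The bladder-side glia were 69 cells with 109412 UMIs, and 1 cell held 25.3% of their sterol UMIs. Assembloid-side and 1-day cells were close, which the choice by neighbours favours. No sterol gene was 2-fold different between them in urothelium (0.227% of measured genes were), fibroblasts (0.931%) or endothelium (2.11%). In fibroblasts each of the 18 sterol genes was nevertheless higher in assembloid-side than in 1-day cells, by log2 ratios of 0.06 to 0.60, and 17 of those intervals lay above 0.

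Glia differed from the other classes at this point. In assembloid-side glia 8 of 15 measured sterol genes were 2-fold higher than at 1 day. Of all measured genes 10.8% were 2-fold different in either direction, and the share of higher genes alone is no larger. Fdps read 97.8 CPM at 1 day and 294.4 CPM in assembloid-side glia (1.59, 1.31 to 1.86), Idi1 13.7 and 70.9 CPM (2.38, 1.73 to 3.00) and Cyp51 16.9 and 63.6 CPM. Srebf1 did not follow, with 22.2 and 19.99 CPM. These values come from 51 cells, 1 of which held 10.3% of the sterol UMIs.

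The rest of the sterol pathway was read from a list of 22 further genes. In 1-day fibroblasts 21 of them were measured, with 4 2-fold higher and 5 lower than in the bladder, and in endothelium 20, with 2 higher and 4 lower. Over all measured genes 17.4% were higher and 18.0% lower in fibroblasts, and 20.9% and 20.5% in endothelium, so no share of the list stands far above the background and nothing is read from these counts. Tmem97, a sterol-responsive membrane protein, was higher, at 11.9 and 71.1 CPM in fibroblasts (2.58, 2.30 to 2.89) and 2.86 and 39.5 CPM in endothelium (log2 ratio 3.75). The cholesterol exporter Abca1 was lower, at 79.7 and 7.61 CPM in fibroblasts and 185.9 and 24.9 CPM in endothelium. Abcg1, a further exporter, read 24.9 and 1.92 CPM, and Nr1h3, which encodes the oxysterol receptor LXR alpha, 27.8 and 2.16 CPM in fibroblasts. Mylip, a ubiquitin ligase for lipoprotein receptors and known target of LXR, read 73.0 and 6.83 CPM in fibroblasts and 181.1 and 6.05 CPM in endothelium. Bladder-side 7-day fibroblasts had 73.7 CPM of Abca1 and 75.6 CPM of Mylip, and assembloid-side ones 12.5 and 10.5 CPM. Urothelium again went the other way in Abca1, with 29.0 CPM in the bladder and 69.7 CPM at 1 day (1.27, 1.12 to 1.41), and there 1 of 18 measured genes of the list was 2-fold higher and 1 lower. In glia 18 were measured, none higher and 3 lower.

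The counts carry limits of their own. The sources used here do not say whether reads were counted by strand, and Cyp51 overlaps Akap9, Fdft1 overlaps Ctsb, Srebf1 overlaps Rai1, Mvd overlaps Gm20388 and Acaca overlaps Gm11437 on the opposite strand. Tm7sf2 overlaps Vps51 and Fdps overlaps Gm43738 on the same strand, so reads of the shared stretches cannot be told apart.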

How the data were processed

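The 3 libraries were read from the deposited filtered matrices, which hold UMI counts per gene and cell barcode. Per the file headers they were written with Cell Ranger 3.1.0, and the submitters' processing notes name GRCh38, hg38 and mm10. The sources used here do not give the gene annotation release or the cell-calling settings. Each library had 8642 (adult bladder), 9039 (1 day) or 9548 (7 days) barcodes. Cells with at least 90% mouse UMIs, at least 500 genes and under 20% mitochondrial UMIs were kept, human barcodes were not analysed here, and doublets marked by Scrublet (238, 280 and 202 cells) were removed.

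A cell was assigned to the class with the highest percentage of its markers detected, if the margin to the next class was at least 15 percentage points and at least 3 markers were found. Cells whose Leiden cluster had another majority were then left out (11, 16, 4 and 2 bladder cells of urothelium, fibroblasts, endothelium and glia), a rule chosen after seeing the data. The rule also left out 430 of 464 1-day cells and 231 of 554 7-day cells gated as smooth muscle, a class not described here. No class was assigned to 6.91% of kept bladder cells, 34.04% of 1-day cells and 20.53% of 7-day cells. With clusters in place of the gate, fibroblasts were 5365 rather than 2935 cells at 1 day, and 1455 rather than 1435 in the bladder. Subsets were cut on summed CPM of their named genes and are ranges, not types. UMIs were summed per library and class and divided by the class total (CPM). A gene was called measured at a mean of at least 10 CPM over the groups compared, and higher or lower at 2-fold, with 0.5 counts added to each sum. With 1 library per group no model was fitted and no p-value is given, and 0 counts allow up to 3. The files gave no authors' cell types, so the class names are rebuilt. All 27 members are named, and other genes come from lists of further pathway, hypoxia, immediate early and cell cycle genes, those past 2-fold first. The members and lists were chosen with earlier results of these data known.

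The alternatives were another scaling, centring, minimum, fold, gate, clusters in place of the gate, filter, doublet setting and depth. Clustering used scanpy 1.11.5 with anndata 0.12.19, scikit-learn 1.9.0 and leidenalg 0.10.2, intervals scipy 1.17.1, sums pandas 2.3.3 and numpy 2.4.6, and figures matplotlib 3.10.9, in Python 3.11.15. The calling of ratios was tested on simulated data. Gene positions come from GENCODE vM21 on mm10.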

Additional observations from a re-analysis of the deposited data

Results flagged for a closer look

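The summed sterol genes moved in opposite directions in different classes under the same contrast of 1 day with the adult bladder. Their log2 ratio was 1.91 in fibroblasts and 1.27 in endothelium, and -0.72 in urothelium and -0.57 in glia. The summed fatty acid genes stood at 0.49 in urothelium, 0.53 in fibroblasts and 0.02 in endothelium, and at -1.45 in glia. With 1 library per group these differences between classes were not tested.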

How the results depend on the processing

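No paired analysis was possible because each group is 1 library. The alternatives were 14 planned settings and 3 chosen after seeing the data (assembloid-side cells only, a depth window, and the gate without the cluster rule). No sign changed in 608 values of the 43 called members, which were picked for being past 2-fold. Settings that alter only the minimum or the fold leave each ratio as it was. Their values could not differ, here or among the summed ratios. Of 304 summed ratios 4 had the other sign: fatty acid genes of 1-day endothelium at -0.07 when centred and -0.03 by clusters (reported 0.02), fatty acid genes of 1-day urothelium against fibroblasts at -0.07 without the Ndufa4l2 and Fxyd4 cells (0.28), and sterol genes of 7-day glia at -0.15 without the cluster rule (0.44). Of 166 counts under these settings, 145 lay within 1.5 times the reported count. Of the other 21, the minimum of 50 CPM, which tests fewer genes, gave these: 2 sterol genes lower in 1-day urothelium, 2 higher in fibroblasts at 1 day and 4 at 7 days, 1 higher in endothelium at 1 day and 1 at 7 days, 2 lower in 1-day glia and 1 higher in 7-day glia, 4 higher in bladder urothelium than fibroblasts, and 2 lower at 1 day. At 1.5-fold 9 were lower in 1-day urothelium, 1 in 7-day urothelium and 9 lower in 1-day urothelium than fibroblasts. Centred on all measured genes, 7 were lower in 1-day urothelium, and in cells of 4000 to 16000 UMIs 0 were. Assembloid-side cells only gave 3 lower in 7-day urothelium. In 7-day endothelium 4 were higher by the mean over cells and 14 with no minimum. In 7-day glia 2 were higher by the mean over cells and 7 after thinning. The gate without the cluster rule, which returns to the glia 1 bladder cell of high depth that clustered apart, gave 9 lower at 1 day and 0 higher at 7 days. The cause was not tested for the other settings. Summed sterol ratios at 1 day ranged from -0.96 to -0.59 in urothelium, 1.81 to 2.03 in fibroblasts, 1.14 to 1.31 in endothelium and -1.16 to -0.44 in glia. Depth limits glia most, with 752939 UMIs in the bladder class, and members under 10 CPM in any class.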

Other observations

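Of 33 further fatty acid genes, 21 were measured in 1-day fibroblasts (4 were 2-fold higher than in the bladder and 1 lower), 24 in endothelium (4 higher, 8 lower), 26 in urothelium (4 higher, 6 lower) and 23 in glia (3 higher, 9 lower). Over all measured genes 17.4% were higher and 18.0% lower in fibroblasts, 20.9% and 20.5% in endothelium, 10.7% and 6.16% in urothelium and 13.9% and 18.8% in glia. The carrier of fatty acids Fabp5 stood at 24.1 CPM in bladder fibroblasts and 469.8 CPM at 1 day (log2 ratio 4.28, 4.09 to 4.50), with 36.1 CPM in bladder-side and 331.3 CPM in assembloid-side cells of the 7-day library. Slc25a1, the mitochondrial citrate exporter that feeds Acly, read 23.8 and 79.4 CPM in the same fibroblasts (1.73, 1.53 to 1.95). In endothelium Fabp4, a fatty acid carrier of capillaries, went from 5183 to 345.6 CPM (-3.91, -3.98 to -3.83), with 5595 CPM in bladder-side and 534.9 CPM in assembloid-side cells. In urothelium Fabp4 read 129.7 CPM in the bladder and 529.9 CPM at 1 day (2.03, 1.98 to 2.09), and the desaturase Fads1 69.1 and 148.2 CPM. These are from the 4 higher genes. The 6 lower genes of urothelium and the 9 lower genes of glia are not named here.

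Hypoxia genes were 2-fold higher at 1 day in 5 of 9 measured in fibroblasts, 6 of 12 in endothelium (1 lower) and 2 of 8 in glia (2 lower). Of 8 cell cycle genes, 3 were measured in 1-day urothelium, where 2 were 2-fold higher, and 7 in glia, where 3 were lower. Of 8 immediate early genes 1 was higher and 1 lower in urothelium.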
